A study of Homo sapiens with 12 samples.

Results

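ARID1A regions in far intergenic space are places in the genome of RT112 cells, a line from a human bladder transitional cell carcinoma, where ARID1A was mapped with both antibodies used and which lie far from any protein-coding gene start. CUT&RUN, which releases DNA near an antibody's target by tethering a nuclease to the antibody, had been done with an Abcam and a CST (Cell Signaling Technology) antibody against ARID1A, an antibody against H3K4me3 and IgG. Each of these 4 groups had 3 replicates of the same untreated line, 12 samples in all. By the labels, groups differed only in the antibody. No ARID1A-deficient cells entered, and whether replicates were separate cultures is not stated in the sources used here. Per the published methods, antibody dilutions also differed and libraries were made in randomized batches. Which sample was in which batch is not given in these sources. The deposited data used here were 3 lists of called regions, 1 per antibody, each merged over its replicates, with positions only and no height or score. The members were chosen by these calls themselves. An Abcam region on chromosomes 1 to 22 and X was a member if it was under 4000 bp wide, overlapped a CST region, overlapped no H3K4me3 region, had its midpoint outside every protein-coding gene body, had its nearest edge over 100 kb from a protein-coding transcription start site (TSS), and lay over 1 kb from a lncRNA TSS. Of 37501 Abcam regions on these chromosomes, 3487 (9.3%) were members. Since the lists are merged, no value below has a replicate error, and the sequencing depth behind the calls is unknown.

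ARID1A is a DNA-binding subunit of the canonical BAF (SWI/SNF) complex, which uses ATP to slide and evict nucleosomes and is frequently mutated in bladder cancer. BAF is known for work at enhancers, stretches of DNA that raise transcription of a gene from a distance and are usually bound by tissue-specific transcription factors, while trimethylation of histone H3 at lysine 4 (H3K4me3) marks active promoters. AP-1, a dimer of JUN, FOS or ATF family proteins, is known for recruiting BAF to enhancers in several cell types.

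The DNA under members was of different kinds, and 6 stretches are printed to show them. Each is the plus strand of the central 200 bp of a member on hg38, 5′ to 3′, and all lie between genes. In the first 3, capitals mark the AP-1 word TGACTCA or its reverse complement TGAGTCA. These 3 are among the members with the most matches. In the fourth, capitals mark GGAAT read on the opposite strand as ATTCC. The last 2, which hold no AP-1 word, are the member farthest from a TSS and the widest member.
Member nearest SHB, chr9:38170967-38171166: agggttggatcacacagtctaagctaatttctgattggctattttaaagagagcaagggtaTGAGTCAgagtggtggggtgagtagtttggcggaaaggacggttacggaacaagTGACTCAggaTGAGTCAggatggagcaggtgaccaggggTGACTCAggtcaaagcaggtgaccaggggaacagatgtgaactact
Member nearest MDGA2, chr14:48563535-48563734: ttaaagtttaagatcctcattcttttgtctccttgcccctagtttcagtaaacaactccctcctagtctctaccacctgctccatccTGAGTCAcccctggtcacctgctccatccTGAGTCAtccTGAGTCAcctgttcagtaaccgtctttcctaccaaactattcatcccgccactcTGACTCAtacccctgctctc
Member nearest CTNNA2, chr2:81658482-81658681: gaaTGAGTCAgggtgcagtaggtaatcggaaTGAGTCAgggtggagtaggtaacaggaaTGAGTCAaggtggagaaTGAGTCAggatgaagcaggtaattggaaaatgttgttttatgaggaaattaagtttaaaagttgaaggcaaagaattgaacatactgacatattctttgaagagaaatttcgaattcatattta
Member nearest CWH43, chr4:49147401-49147600: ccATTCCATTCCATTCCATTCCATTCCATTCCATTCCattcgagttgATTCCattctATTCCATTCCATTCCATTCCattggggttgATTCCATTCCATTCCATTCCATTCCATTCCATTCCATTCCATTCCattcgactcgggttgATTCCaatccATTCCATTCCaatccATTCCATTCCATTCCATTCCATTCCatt
Member nearest TPTE, chr21:6369801-6370000: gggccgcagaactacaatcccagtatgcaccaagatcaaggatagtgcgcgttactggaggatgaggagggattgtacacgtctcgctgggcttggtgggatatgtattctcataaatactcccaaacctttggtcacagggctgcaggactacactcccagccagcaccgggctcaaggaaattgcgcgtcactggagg
Member nearest DNAH14, chr1:224783686-224783885: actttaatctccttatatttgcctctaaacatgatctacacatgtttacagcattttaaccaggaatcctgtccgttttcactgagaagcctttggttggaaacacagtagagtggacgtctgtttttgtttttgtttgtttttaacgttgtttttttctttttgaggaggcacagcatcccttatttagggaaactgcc

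Some of these AP-1-rich members shared sequence around the matches. The members nearest SHB and MDGA2 shared 34 bases on opposite strands, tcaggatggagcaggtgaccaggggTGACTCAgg, found in 3 members, in 0 of the intergenic ARID1A regions 10 to 100 kb from a TSS and in 0 of the distal intronic ones, both described below. The members nearest SHB and CTNNA2 shared 13 bases on the same strand, aTGAGTCAggatg, which were also found outside members. They were held by 6 of 3487 members, 6 of 5124 of the intergenic and 5 of 5362 of the intronic regions. These stretches were chosen after the sequences were seen. Few members held several matches in the central 400 bp. Of 3484 members with a central 400 bp free of unknown bases, 2239 held no AP-1 word there, 1044 held 1, 175 held 2, 20 held 3 and 6 held 4 to 7. Over their whole width, 835 of 3487 members (23.9%) held at least 2.

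Most Abcam regions at these positions met the rest of the rule. Far from genes and over 1 kb from a lncRNA TSS there were 4947 Abcam regions before the width, H3K4me3 and CST conditions were applied. Of them, 32 (0.647%, 95% exact binomial interval 0.443 to 0.912%) overlapped H3K4me3, against 20.8% of all Abcam regions. The share was likewise low in other regions away from promoters, at 1.2% of intergenic regions 10 to 100 kb from a TSS and 0.269% of distal intronic regions. The intervals here and below cover counting over regions only. Of the 4818 that were under 4000 bp and without H3K4me3, 72.4% (71.1 to 73.6%) overlapped a CST region, next to 74.5% of intergenic regions 10 to 100 kb from a TSS and 73.5% of distal intronic regions. The 1331 that the CST list did not share had a median width of 1051 bp, and members one of 1516 bp. At the edges of the rule, the widest member was 3997 bp and the narrowest excluded for width 4008 bp, and the nearest member lay 100019 bp from a TSS while the nearest miss lay 99962 bp away.

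Members were close in width to other distal regions, and the calls of the 2 antibodies lay near each other. The rule sets this in part, since it asks for overlap and a width under 4000 bp. Median width was 1516 bp in members. It was 1564.5 bp in intergenic regions 10 to 100 kb from a TSS and 1511 bp in distal intronic regions. Widths ran from 358 to 3997 bp, with the middle of the distribution between 1172 and 1991 bp. The CST partner had a median width of 1430 bp and covered a median of 86.4% of the member. Of the members, 3436 met 1 CST region and 51 met several. The midpoints of the 2 calls were a median of 144 bp apart, and 2195 pairs (62.9%) were within 200 bp. In the intergenic regions 10 to 100 kb away these values were 152 bp and 60.8%, and in distal intronic regions 153.5 bp and 60.6%. The widest member, 110 kb from DNAH14, an axonemal dynein gene, was one of the less well matched, since its CST partner spanned 2093 bp and was centred 963 bp to the left. Another of 3969 bp, 275 kb from KLF5, lay wholly within a CST region of 5142 bp. The other 3 of the 5 widest were nearest to ADAMTS15, a secreted metalloprotease gene, FEM1C and FERMT1, a focal adhesion gene, and 64.3 to 84.6% of each was covered.

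Members became sparser with distance from genes. The median distance from a TSS was 217 kb, the middle of the distribution ran from 144 to 369 kb, and the largest was 4150 kb. Per Mb of intergenic sequence without unknown bases, there were 6.63 members at 100 to 200 kb (1577 members), 4.14 at 200 to 500 kb (1370), 2.06 at 500 to 1000 kb (415) and 0.859 beyond 1000 kb (125). Regions that met the rule except for lying 10 to 100 kb away (5124 regions, called nearer regions below) stood at 9.61 per Mb, against 3.81 per Mb for members over 916 Mb. The nearer regions also thinned with distance, from 11.4 per Mb at 10 to 20 kb to 8.12 at 50 to 100 kb. The sequence counted includes satellite and centromere models, where uniquely mapped reads are few, and their part in the lowest bins was not tested.

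**Figure D1:**
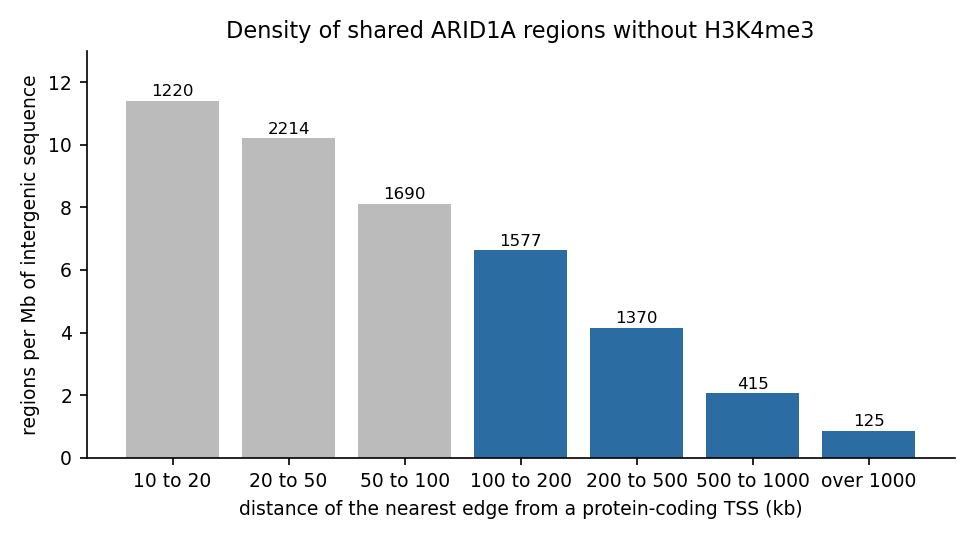
Shared ARID1A regions without H3K4me3 per Mb of intergenic sequence (vertical axis) by distance of the nearest edge from a protein-coding TSS in kb (horizontal axis), with members in blue, nearer regions in grey and the number of regions above each bar. The bars decline at every step, from 11.4 per Mb at 10 to 20 kb to 0.859 per Mb beyond 1000 kb.

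Chromosomes differed in the same measure. Chromosome 20 held 8.72 members per Mb of far intergenic sequence (156 members), followed by chromosomes 8, 10, 6 and 12 with 5.59 to 5.79 per Mb. Chromosome 19 held 0.615 per Mb (4 members in 6.51 Mb) and X held 1.33 per Mb (75 members). Copy number and depth per chromosome were not measured here, and their part in these densities was not tested.

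Members were gathered in a minority of the gaps between genes, and the gap beside GATA3 held the most. Of 2039 intergenic intervals with sequence over 100 kb from a TSS, 833 (40.9%) held a member and 1206 held none. The 86 intervals with at least 10 members held 1284 of them (36.8%), and the 10 fullest held 271 (7.77%). The fullest, 34 members between GATA3, a master regulator of luminal urothelial identity, and CELF2, an RNA-binding protein gene, spans 8075199 to 10798396 on chromosome 10, and all 34 had GATA3 as nearest gene. All 34 lay within 1.19 Mb of GATA3, in an interval of 2.72 Mb.

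The others of the 10 followed closely. Between CITED2, a transcriptional coregulator, and the neuromedin receptor gene NMBR there were 33 members, and between IGFBP3, a carrier of insulin-like growth factors, and the focal adhesion gene TNS3 there were 30. The interval between KLF5, an epithelial transcription factor, and its relative KLF12 was the most densely filled of the 10, with 28 members in 0.513 Mb of far sequence (54.58 per Mb). DAB2, an endocytic adaptor, and TTC33 flanked 27. The ephrin ligand gene EFNB2 and DAOA flanked 26. The sialyltransferase gene ST3GAL1 and ZFAT flanked 25, and KLF4, another epithelial factor, and ACTL7B also flanked 25. MYC and GSDMC flanked 22, and ACTBL2 and the kinase gene PLK2 flanked 21, as many as 3 further intervals that tie with it.

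**Figure D2:**
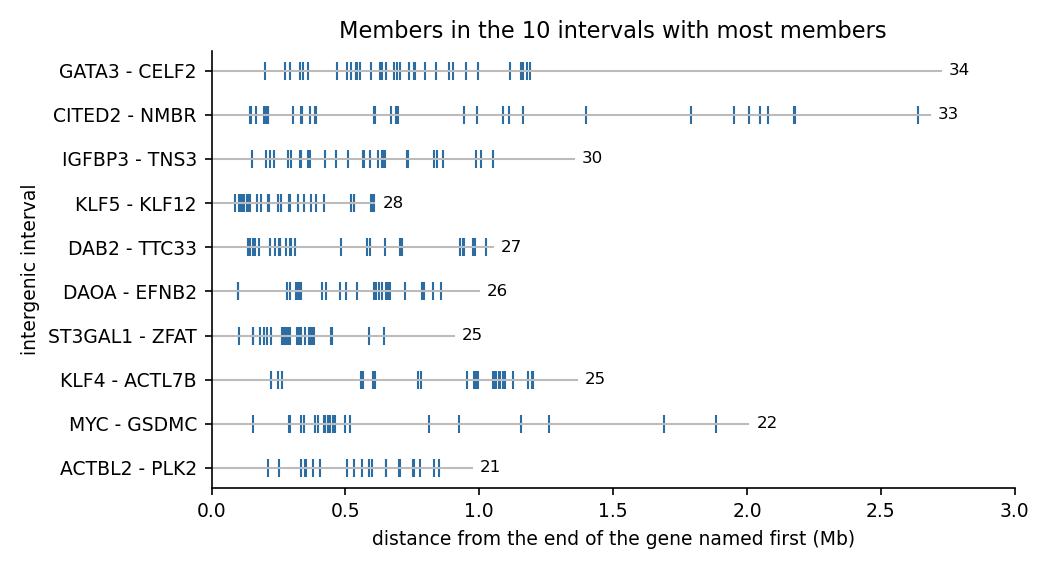
Position of each member (blue tick) in the 10 intergenic intervals with most members, in Mb from the end of the gene named first, with the interval as a grey line and its number of members at the right. All ticks of the GATA3 interval stand in its left part, and those of the KLF5 interval run from 0.0863 to 0.607 Mb of its 0.609 Mb.

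The emptiest intervals were of more than 1 kind. The largest without a member, with 6.01 Mb of far sequence between ZNF716 and ZNF722 on chromosome 7, spans a centromere, as do those of 5.88 Mb on chromosome 18 and 5.13 Mb on X. Intervals away from centromeres were also empty, such as 3.87 Mb between OLFM4 and PRR20A on chromosome 13 and 3.8 Mb between C4orf33 and the protocadherin gene PCDH10 on chromosome 4.

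Within intervals, some members stood in clusters. When members within 12.5 kb were joined, 1798 (51.6%) remained alone and 845 (24.2%) fell in 223 groups of 3 or more. The same count was not made for nearer or intronic regions, so these shares have no background beside them. The largest group held 11 members in 54.7 kb on chromosome 1 (209362520 to 209417207), nearest to CAMK1G. Groups of 8 lay nearest to NEBL, ACKR3, an atypical chemokine receptor gene, and SOX9, a transcription factor of epithelial progenitors, where they spanned 47.2 kb. Groups of 7 included one of 42.6 kb near KLF5 and one of 42.3 kb near MYC. Another group of 7, of 35.9 kb, lay nearest to TBC1D1, a gene for a Rab GTPase-activating protein on chromosome 4. The remaining groups of 7 or 8, nearest to H3-7, ZNF33B, CWH43, RPIA and ENSG00000284209, lay where satellite-like members, described below, were found.

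Genes for luminal and epithelial transcription factors bordered members often. Of 3352 protein-coding genes that border sequence over 100 kb from a TSS, 1511 (45.1%) bordered an interval with a member. Of the 24 genes of a list of luminal and epithelial transcription factors, 13 border such sequence and 12 of them (92.3%, exact interval 64.0 to 99.8%) bordered a member, with a median of 11 members each, where the median over all such genes was 0. GATA3 bordered 34 members, KLF5 28, SOX4 15, TBX3 14, TFAP2C 14 and TFAP2A 12, and all 6 of these promoters had regions of both ARID1A antibodies and H3K4me3. Per Mb of far sequence the order changed, with KLF5 at 54.6, TFAP2C at 33.1 and SOX4 at 20.5 ahead of GATA3 at 13.6 and TFAP2A at 6.93.

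Signalling genes came next. Of the 24 genes for growth factor, cytokine and WNT signalling, 14 border far sequence and 11 (78.6%, 49.2 to 95.3%) bordered a member, with a median of 4.5 members. BMP2, a bone morphogenetic protein gene, bordered 24 members and had an Abcam region but no CST region at its promoter. The receptor tyrosine kinase antagonist SPRY2 bordered 16, the ERK phosphatase DUSP6 13, the ligand TGFB2 13, the receptor FGFR2 6 and the signal transducer SMAD3 6. The TGFB2 promoter had neither ARID1A nor H3K4me3 regions.

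Regulators of other tissues also bordered members often, though with a lower median than the lists above. Of 14 such genes that border far sequence 10 (71.4%, 41.9 to 91.6%) bordered a member, with a median of 1. Over all genes that border far sequence these values were 45.1% and 0. The interval overlaps those of the luminal and the signalling list. The nuclear receptor gene NR2F1, with 13 members and a promoter marked by both antibodies and H3K4me3, led this list, and SOX2, a regulator of stem cells, had 9 and an unmarked promoter. ISL1 bordered 3, LHX2 2 and ZFHX4 2. Per Mb of far sequence LHX2 stood at 46.5, over only 0.043 Mb, SOX2 at 6.71, NR2F1 at 6.62, ZFHX4 at 2.1 and ISL1 at 1.85. Of 18 cell cycle and bladder cancer genes only 2 border far sequence, and MYC, which bordered 29 members over its 2 intervals, was the 1 with a member. Of 20 AP-1, TEAD and YAP genes 5 border far sequence and 1, JUN, bordered members, 3 in all. These lists were chosen with earlier results of these data known, and genes beside long gaps have more room for members, so the counts are descriptions.

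Genes nearest to many members more often had marked promoters. A promoter was called marked by ARID1A if regions of both antibodies lay within 1 kb of a TSS, which held for 38.2% of 19618 protein-coding genes, and 53.1% had an H3K4me3 region there. Of the 1090 genes that were nearest to at least 1 member, 42.3% (39.3 to 45.3%) had ARID1A and 55.6% (52.6 to 58.6%) had H3K4me3. Of the 219 genes nearest to at least 5 members the shares were 55.3% (48.4 to 62.0%) and 67.1% (60.5 to 73.3%). Of 2110 genes that were nearest to far sequence without a member they were 28.2% (26.3 to 30.2%) and 41.4% (39.3 to 43.6%). Of 2723 genes nearest to a region 10 to 100 kb away they were 51.4% (49.5 to 53.3%) and 60.5% (58.7 to 62.4%). The shares at genes with at least 1 member thus lay near those of all genes, above those of genes beside empty far sequence and below those of genes nearest to nearer regions. Beyond GATA3, genes nearest to many members included CITED2 (24), ST3GAL1 (23), MYC (23), the phosphatase gene DUSP10 (22), KLF6 (22) and SOX9 (18). KLF6 and SOX9 had H3K4me3 but no ARID1A region at the promoter.

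Members were also far from the nearest H3K4me3 region. The median distance was 279 kb, and 3309 members (94.9%, 94.1 to 95.6%) lay over 100 kb away, compared with 23.8% of nearer regions and 42.4% of distal intronic regions (5362 regions in protein-coding gene bodies, outside exons and over 10 kb from a TSS). The rule sets this in part, since it keeps members far from protein-coding starts. Some members lay in noncoding annotation. The midpoint of 1237 members (35.5%, 33.9 to 37.1%) lay in a lncRNA gene body, against 21.5% of nearer regions. The share of far intergenic sequence in lncRNA gene bodies was not measured, so the 35.5% has no background beside it. In a pseudogene lay 58 of 3487 members and 118 of 5124 nearer regions. The median distance to a lncRNA TSS was 47.3 kb, and 1030 members were over 100 kb from one.

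The AP-1 word had the smallest p of all words when members were compared with the DNA around them. It was searched, like every 7-letter word, on both strands of the central 400 bp and of 400 bp lying 2 kb outside the same region. In 3391 members with both windows, TGACTCA was present in 36.1% of regions and 6.31% of their flanks. It was in the region alone in 1137 pairs and in the flank alone in 128 (exact McNemar test, adjusted p = 1.14e-198 over 8192 words by Benjamini-Hochberg). Of 916074 windows of 400 bp taken every 1 kb through far intergenic sequence, 5.71% held it. Over whole members, 2223 (63.8%, 62.1 to 65.3%) held at least 1 match and 835 (23.9%) at least 2. Members are mostly wider than 400 bp, and no share was counted in other sequence of equal length. The whole-member shares thus have no background beside them. Sequence was not used by the rule. The p-values here are over regions of merged lists and not over replicates, and neighbouring regions are not independent.

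**Figure D3:**
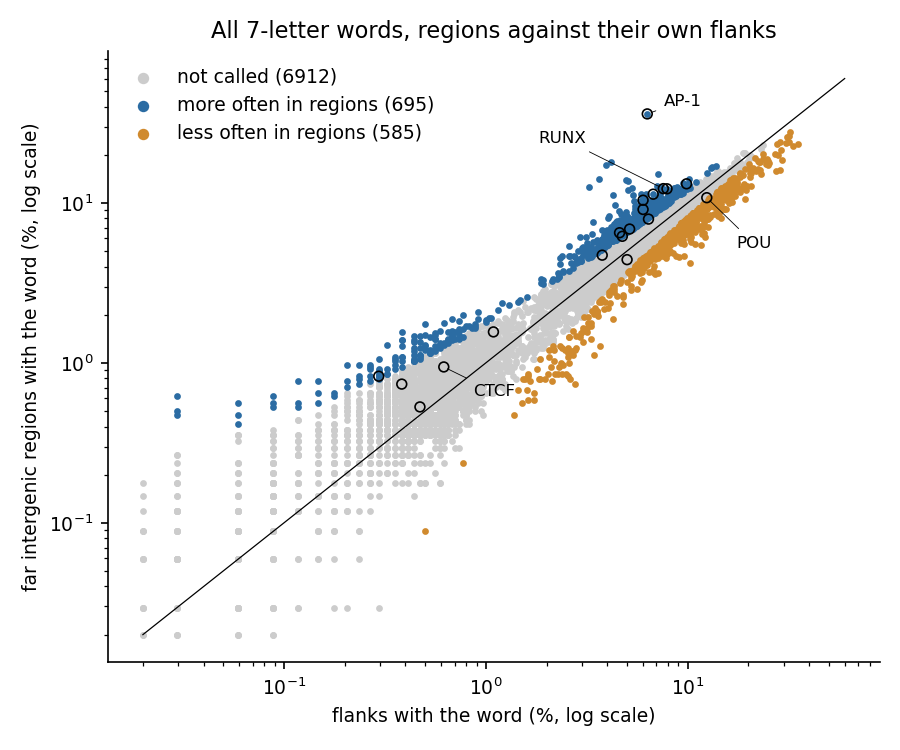
Share of far intergenic regions (vertical axis, %) against share of their own flanks (horizontal axis, %) that hold each of 8192 words of 7 letters, both on log scales, for 3391 pairs. Words at 0 are drawn at 0.02, the line marks equal shares, circles mark the 19 words of known factors and 4 are labelled. Of all words, the AP-1 word is in the largest share of regions, 36.1%, against 6.31% of flanks.

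Matches were centred on members. In bins of 100 bp the AP-1 word was in 11.3% of members at the midpoint and in about 2% by 1 kb away, with nearly the same curve in nearer and intronic regions. Narrow members held it in the central 400 bp more often than wide ones, with 44.3% (40.9 to 47.6%) in the narrowest members and 26.7% (23.8 to 29.8%) in the widest, when members were split into 4 classes of nearly equal size by width.

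**Figure D4:**
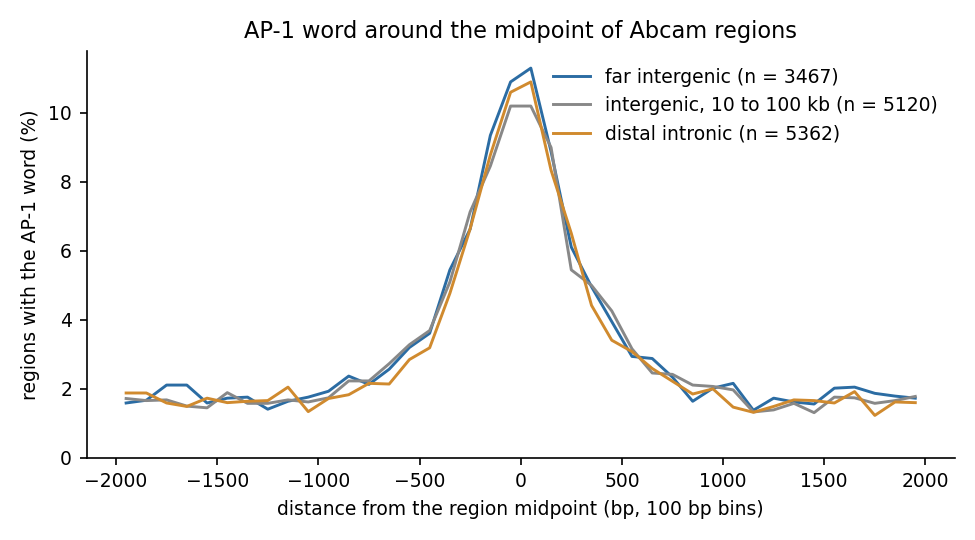
Share of Abcam regions with the AP-1 word (vertical axis, %) in 100 bp bins by distance from the region midpoint in bp (horizontal axis), for far intergenic (blue), nearer intergenic (grey) and distal intronic (orange) regions. All 3 curves peak at the midpoint, where the far intergenic curve reaches 11.3%.

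Words of other factors differed far less. Of all 8192 words, 695 (8.48%) were present more often and 585 (7.14%) less often in regions than in flanks at an adjusted p under 0.05 (exact McNemar test), so a call by itself is common. Of the 19 words of known factors, 10 were called and all 10 were more frequent in regions. The TEAD words CATTCCA and GGAATGT, bound by the partners of YAP, were in 12.3% of regions against 7.9% of flanks and in 10.4% against 6.02% (exact adjusted p = 3.14e-08 and 4.46e-09). The RUNX word TGTGGTT was in 12.3% against 7.58% (9.64e-09, exact). The forkhead word TGTTTAC, bound by FOXA factors among others, was in 11.4% against 6.75% (5.59e-09, exact). These 4 words stood at 1.55 to 1.73 times the flanks, where AP-1 stood at 5.71 times.

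Smaller differences passed for 5 further words. The GATA word AGATAAG was in 9.11% of regions and 6.02% of flanks, and the ETS word CAGGAAG in 13.2% and 9.88%. The nuclear receptor word AGGTCAA was in 6.52% and 4.6%, and the KLF word GGGTGTG in 6.87% and 5.16%. The grainyhead-like word AACCGGT was rare, in 0.826% and 0.295%. In windows taken through far intergenic sequence, these 9 words other than AP-1 were found at shares from 0.306 to 8.97%. That share was above the flank share for GGAATGT (8.08%), AGGTCAA (5.25%), TGTGGTT (7.69%) and AACCGGT (0.306%), and below it for the others. The ratios above are to flanks only. In the 1245 members with the AP-1 word, the TEAD word CATTCCA was present in 10.6%, the forkhead word in 10.6% and the GATA word in 7.87%, and in the 2239 without it in 13.7, 11.8 and 9.56%, differences that were not tested. The 2239 include all 70 members with tandem GGAAT copies, described below, and CATTCCA overlaps copies of that unit. Without these 70, CATTCCA was in 11.1% of 3414 members, next to 12.6% with them. Of 3484 members, 657 (18.9%) held none of the 19 words.

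No difference was called for the other 9 words. They were TGACGTC (CRE and ATF), AACAGGT (a second grainyhead-like word), GGGGCGG (SP and KLF), TTGCGCA (C/EBP), ACATGTC (p53 and p63), GGGGGCG (a core of the CTCF site), CAGCTGC (E-box), GTTAATG (HNF1) and ATGCAAA (POU). The CTCF word was in 0.944% of regions and 0.619% of flanks, and the POU word in 10.8% and 12.4%. A missing call says nothing of whether the factor was present.

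Apart from AP-1, base composition ran through the calls. Words that overlap the AP-1 word by at least 5 letters at an end, or differ from it by at most 1 letter, number 60. Of them, 39 were among the 695 words that were more frequent. Of the 10 words with the smallest p, 7 were the AP-1 word or a shift of it by 1 base, such as ATGACTC in 18.1% of regions and 4.16% of flanks. The other 3 were made of A and T only and were less frequent in regions. AAAAATT was in 16.1% of regions and 28.8% of flanks. For AAAATTA these shares were 15.8% and 27.4%. For the last of them, AAAAATA, they were 23.2% and 35.2%. Of the 585 less frequent words, 356 had at least 5 A or T letters, as 1856 of all words do. Members were richer in GC than their flanks, with 2036 pairs higher in the region, 1306 higher in the flank and 49 equal (exact sign test, p = 9.75e-37). The median difference was 2.25 percentage points, and the medians were 41.5% for regions and 39.5% for flanks. The part of base composition in the word calls was not tested.

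Far and nearer intergenic regions differed in many words, and for the AP-1 word the difference did not pass the threshold. It was in 35.7% of 3484 far and 33.5% of 5124 nearer regions, a difference of 2.23 percentage points (95% interval 0.176 to 4.28 before adjustment, Fisher's exact test, adjusted p = 0.12). Words that differed between these sets numbered 1583 (19.3%), with 657 more frequent and 926 less frequent in members. The forkhead word was more frequent in members, 11.4% against 8.63% (adjusted p = 0.000519, Fisher's exact test), as was the GATA word, 8.96% against 7.24% (0.029). GC-rich words were less frequent in members. KLF GGGTGTG was in 6.8% against 10.1% (3.62e-06), SP and KLF GGGGCGG in 1.55% against 3.22% (3.58e-05), CTCF GGGGGCG in 0.918% against 2.21% (9.96e-05) and E-box CAGCTGC in 7.95% against 11.1% (3.72e-05). The ETS word was also less frequent, 13.2% against 16.4% (0.00122). Median GC moved with these words, at 41.5% in members and 44.5% in nearer regions, and its part in them was not tested.

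Distal intronic regions were more like members in sequence. Between these sets 270 words (3.3%) differed, 79 more and 191 less frequent in members, and median GC was 42.2% in intronic regions. The AP-1 word was in 35.7% of members and 34.9% of intronic regions, a difference of 0.822 percentage points (95% interval -1.22 to 2.86, Fisher's exact adjusted p = 0.828). The forkhead word differed by 0.298 percentage points (-1.05 to 1.65). The KLF word GGGTGTG was again less frequent in members, 6.8% against 9.42% (Fisher's exact adjusted p = 0.00128).

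Among members the AP-1 word was found at like shares up to 1000 kb from a TSS and at a lower share in the few members beyond. It was 36.2% (33.8 to 38.6%) at 100 to 200 kb, 36.5% (34.0 to 39.1%) at 200 to 500 kb, 34.3% (29.7 to 39.1%) at 500 to 1000 kb and 25.8% (18.4 to 34.4%) in 124 members farther away. Without the satellite-like windows described next, the last 2 shares were 37.1% and 28.3%, and the interval of the last (20.2 to 37.6%) overlapped those of all 3 nearer bins.

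**Figure D5:**
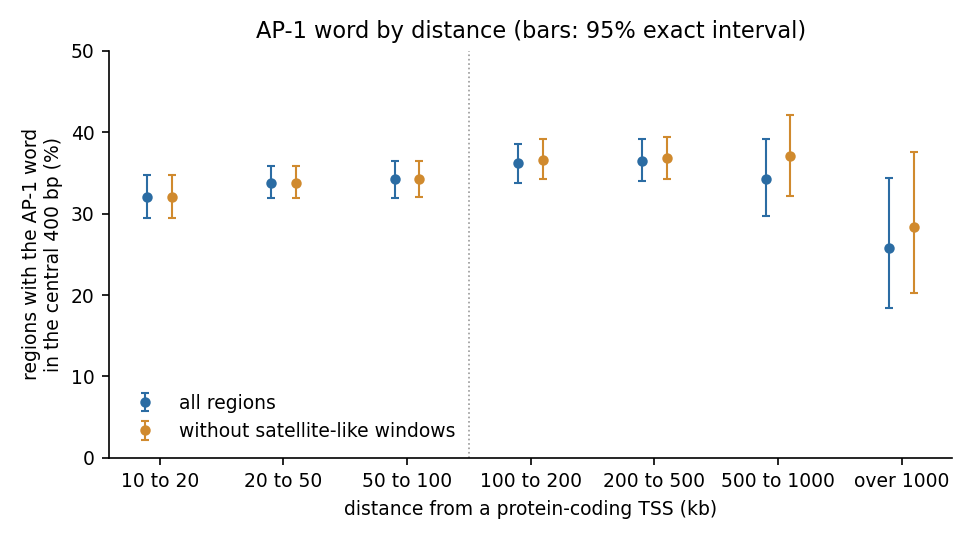
Share of regions with the AP-1 word in the central 400 bp (vertical axis, %) by distance from a protein-coding TSS in kb (horizontal axis), for all regions (blue) and without satellite-like windows (orange), with 95% exact binomial intervals as bars. Members are right of the dotted line, where the share is 34.3 to 36.5% up to 1000 kb and 25.8% beyond for all regions.

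A small set of members lay in tandem copies of GGAAT, the unit of human pericentromeric satellites. Windows with at least 8 copies in 400 bp, a limit chosen after seeing the data, numbered 70 of 3484 members (2.01%, 1.57 to 2.53%), 1 of 5124 nearer regions, 0 of 5362 intronic regions, which allows a share of up to 0.0688%, and 44 of 3391 flanks. No member had 8 or 9 copies and 4 had 6 or 7. The 70 lay on chromosome 4 (17 members), 10 (15), 1 (13), 2 (9), 16 (9), 20 (5), 5 (1) and 21 (1). None of them held the AP-1 word, which allows up to 5.13%, whereas 1245 of the other 3414 (36.5%) did. Their median width was 1290.5 bp and that of the other members 1518 bp, and 42 of them were over 500 kb from a TSS. They made up 17 of the 18 members between CWH43 and DCUN1D4 on chromosome 4, of which the fourth printed stretch is one, and all 15 between PLD5P1 and ZNF33B on chromosome 10. None lay in the 10 intervals with most members. The authors kept only uniquely mapped reads, how well such repeats could be mapped was not measured, and both antibodies share that limit.

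The comparison with nearer regions depended on these windows for 3 words of known factors. Without them the TEAD word CATTCCA, which overlaps copies of the GGAAT unit, was in 11.1% of members against 10.2% (Fisher's exact adjusted p = 0.338), and with them in 12.6% (0.00557). The AP-1 word passed without them, at 36.5% against 33.5% (Fisher's exact adjusted p = 0.0346). So did the RUNX word, at 12.4% against 10.5% (0.0313, Fisher's exact test), which with them stood at 12.2% (0.0627).

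The 5 farthest members lay at centromeres or on the short arm of chromosome 21, which is made largely of repeats. The farthest, 682 bp at 6369560 to 6370241 on chromosome 21, was 4150 kb from TPTE, and the CST region covered all of it. The second, 567 bp on chromosome 1, was 3990 kb from SRGAP2C and satellite-like. The third, nearest to the potassium channel gene KCNJ18 on chromosome 17, was 2500 kb away, and the fourth, nearest to the defensin gene DEFB115 on chromosome 20, was 2410 kb away. The fifth, again nearest to TPTE, was 2300 kb away and 6.8 kb from the ribosomal RNA gene RNA5-8SN2.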

How the data were processed

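CUT&RUN libraries of RT112 cells (12 samples, 3 replicates for each of 4 antibodies) were processed by the authors, per the labels and the published methods, with bcl2fastq, cutadapt, Picard, deepTools, bedtools and SEACR on hg38. Duplicates and reads without a unique position were removed, and replicates were scaled by E. coli spike-in reads. Regions were called from the scaled coverage and only a fixed top fraction was kept, so the number listed depends on that cut. The regions of replicates were then merged, so a listed region may come from 1 replicate. The deposited region lists hold positions only, with no count or score. The methods describe a relaxed and the lists' names a stringent threshold, so the one used is uncertain. IgG regions and regions per replicate were not analysed here, and depth is unknown.

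Positions were set against GENCODE 44 and the hg38 sequence with Python 3.11.15, pandas 2.3.3, numpy 2.4.6, pysam 0.24.0 and scipy 1.17.1. Overlap meant at least 1 bp. TSSs were those of protein-coding transcripts. Presence of all 8192 7-letter words (either strand) was compared by the exact McNemar test (region against flank) or Fisher's exact test (between classes), two-sided, adjusted by Benjamini-Hochberg over all words, and GC by an exact sign test. The word test was tested on simulated data. Of the members, 96 had no usable pair of windows. Named were the 10 fullest intervals, the 5 farthest and 5 widest members, up to 6 genes per list by members, the 19 fixed words and the 10 words with smallest p. Other genes named by clusters or nearest members were chosen after their values were seen. Members and lists were chosen with earlier results of these data known. Alternatives covered window, centre, flank, width, overlap, distance and TSS set. Some items that these rules name are not reported here.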

Additional observations from a re-analysis of the deposited data

How the results depend on the processing

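The share of members with the AP-1 word exceeded that of flanks by 29.8 percentage points and by 17.3 to 32.1 points under the alternatives, always past the threshold, and the region was higher in GC in 60.9% of unequal pairs and in 58.2 to 62.3% under the alternatives. The number of members was 1813 with Abcam regions at least as wide as the list's median and 1910 at over 200 kb, while overlap of at least 50% of both regions (3140), all transcripts of protein-coding genes (3235) and regions of the CST list (3540) kept it within 1.5 times. Counts of words moved. With the central 200 bp, 269 words were more and 319 less frequent than in flanks, 578 differed from nearer and 89 from intronic regions. With regions at least as wide as the Abcam median these counts were 155, 215, 700 and 81, from fewer regions. Without windows of at least 8 GGAAT copies, chosen after seeing the data, 164 words differed from intronic regions. Leaving out members over 1 Mb from a TSS, also chosen afterwards, kept every count within 1.5 times. The flank does not enter the comparisons between classes. No paired analysis was possible because the lists are merged over replicates, and for the same reason no replicate could be left out. The planned share of bases in repeats was not run, since the reference used here does not mark repeats. The lists hold no depth, so a weak region that was missed cannot be told apart from one that is absent.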

Other observations

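Because the rule measured distance from protein-coding genes only, some members lay beside genes of other kinds. On chromosome 21, 5 members were within 50 kb of a ribosomal RNA gene, 4 of them nearest to RNA5-8SN2 (8219530 to 8235023), the closest at 6.8 kb, and 1 at 19.3 kb from RNA5-8SN1, and widths were 648 to 1269 bp. Immunoglobulin and T cell receptor segments, which are joined into antigen receptor genes in lymphocytes, had 29 of the 3487 members within 10 kb. Of these, 12 lay at the TRA locus on chromosome 14 (21867568 to 22299032), 9 at the TRB locus on chromosome 7 (142373438 to 142558209), 7 at the IGH locus on chromosome 14 (105675397 to 106873919) and 1 near a segment named as IGK on chromosome 2. These counts were made after the data had been seen. The share of far intergenic sequence near such genes was not measured, so the counts have no background beside them.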
